A study of Homo sapiens with 2 samples.

Results

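The NRF2 pathway was followed through 10 genes, taken by symbol from both count files: NFE2L2, KEAP1, SLC7A11, GCLM, GCLC, SRXN1, TXNRD1, HMOX1, NQO1 and OSGIN1. All 10 were found among 43424 gene symbols, and all 10 had at least 30 counts over both libraries, the minimum that kept 11068 genes as measured. The cells were Hep3B, an established human hepatocellular carcinoma line, labelled wild type and grown in DMEM with fetal bovine serum, penicillin and streptomycin. One library came from cells treated with an extract of the plant Glehnia littoralis (GLE), and the other from control cells given dimethyl sulfoxide (DMSO), the solvent. The sources used here give neither dose nor duration of the GLE treatment for these cells. There was 1 library per group, so no difference below has a replicate check and no test between conditions was made.

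NRF2, the protein of NFE2L2, is a transcription factor that KEAP1 holds in the cytoplasm and marks for destruction through the CUL3 ubiquitin ligase. Oxidants and electrophiles modify cysteines of KEAP1, so that new NRF2 escapes, pairs with a small MAF protein and binds antioxidant response elements beside its target genes. Those targets make and recycle glutathione and thioredoxin and break down heme and quinones, which in liver is part of the defence against reactive drug metabolites. NRF2 is controlled mainly as a protein, which messenger RNA counts do not measure.

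The GLE library held 3636351 counts and the DMSO library 5618328, so a floor of 3 counts stood at 0.848 CPM (counts scaled to an effective library of 1000000) in GLE and 0.519 CPM in DMSO. Genes of the mitochondrial genome took 24.6% of GLE counts and 22.4% of DMSO counts. All 10 hepatoma markers, among them ALB and AFP, were measured in both libraries, with 9 counting intervals below a GLE over DMSO ratio of 1 and 1 above it, and their median log2 ratio was -0.52. Of 11 markers of blood, endothelium and fibroblasts, 3 reached 30 counts over both libraries. They were CD68 (96 GLE and 117 DMSO counts), PECAM1 (1 GLE and 36 DMSO) and COL1A1 (29 GLE and 4 DMSO). CD3E, VWF and CDH5 were at 0 in both libraries. Summed marker levels were 30.5 CPM in GLE and 20.4 CPM in DMSO for blood, and 0.283 CPM in GLE and 6.23 CPM in DMSO for endothelium. For fibroblasts they were 13.0 CPM in GLE and 2.60 CPM in DMSO. CD68 gave most of the blood sum and PECAM1 all of the endothelium sum, so the sums are not amounts of a cell type. The part of these markers in the results was not tested. In bulk RNA, fewer cells and less RNA per cell cannot be told apart.

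Higher and lower values were unevenly spread over the pathway. The cystine importer SLC7A11, the glutamate-cysteine ligase modifier GCLM, sulfiredoxin SRXN1 and heme oxygenase HMOX1 were at least 2-fold higher in the GLE library, which makes 4 of 10 genes, where 9.54% of all measured genes were. None of the 10 was at least 2-fold lower, against 10.5% of measured genes. The ligase catalytic subunit GCLC and the quinone reductase NQO1 stayed near a ratio of 1, and KEAP1 was lower in GLE. The 95% counting interval lay above 1 for 7 genes, against 27.7% of measured genes, and below 1 for KEAP1 alone, against 30.1%. NFE2L2 is among the 7, but whether its interval excludes 1 depends on the scaling. For SLC7A11, GCLM and SRXN1 the whole interval lay beyond 2-fold, which 3.82% of measured genes reached in that direction, and no gene lay wholly beyond 2-fold lower, against 2.86%. The median log2 ratio of the 10 genes was 0.64, and that of all measured genes was -0.04, with an interquartile range of -0.50 to 0.43. The 10 genes and the lists below were chosen with earlier results of these data known. Contrasts with all measured genes are therefore description and no independent support for a raised pathway. The intervals treat each read as an independent molecule and cover counting error only, so variation between cultures cannot be told apart from an effect of the extract.

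**Figure D1:**
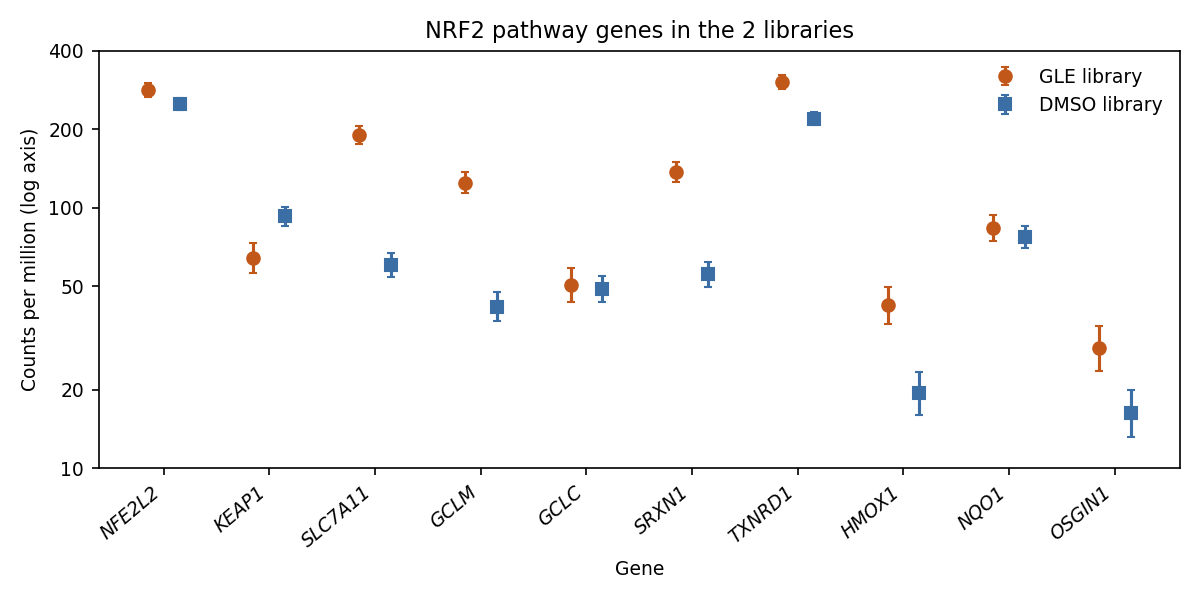
Level of each of the 10 genes in the GLE library (circles) and the DMSO library (squares), in CPM on a log axis, with exact Poisson 95% intervals of the single count. Under the main scaling the GLE and DMSO intervals are clear of each other for NFE2L2, SLC7A11, GCLM, SRXN1, TXNRD1, HMOX1, OSGIN1 and KEAP1. KEAP1 is lower in GLE.

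The promoters of these genes were searched for the letters that NRF2 and small MAF proteins bind. Windows of 250 bases before to 50 after an annotated start were available from RefSeq (GRCh38.p14) for 8 of the 10 genes, 11 windows in all, the others being SLC7A11 and HMOX1. The core antioxidant response element TGACNNNGC and its variant TGAGNNNGC were searched on both strands. The core was present in 4 windows of 3 genes, GCLM, KEAP1 and TXNRD1, and either form in 7 windows of 6 genes. GCLC and SRXN1 had neither within their windows. Sequence outside the windows was not searched, so a missing match does not mean that a gene lacks an element. Among all 35116 promoter windows, 13.3% held the core, 18.3% the variant and 29.1% either. The sequences below are 30 bases of the gene's strand, 5′ to 3′, with the match in capitals. They are shown because GCLM, KEAP1, TXNRD1 and OSGIN1 carry related matches while their counts differed in size or direction.
GCLM, chr1:93909445-93909474, minus strand: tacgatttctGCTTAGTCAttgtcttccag
KEAP1, chr19:10502783-10502812, minus strand: gcccggctctGCTTAGTCAtggtgacctgc
TXNRD1, chr12:104286920-104286949, plus strand: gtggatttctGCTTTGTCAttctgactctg
OSGIN1, chr16:83953131-83953160, plus strand: acgggcccctGCTGACTCAcgcttatgaaa
The match is to the core in GCLM, KEAP1 and TXNRD1 and to the variant in OSGIN1. Each of the 4 reads as the motif on the strand opposite to the gene. GCLM and KEAP1 hold the same 9 letters, TGACTAAGC on that strand, which 36 of the 35116 windows (0.103%) contained. The match began 34 bases before the annotated start in GCLM, 31 in KEAP1, 102 in TXNRD1 and 99 in OSGIN1. In GENCODE 29 the 30 bases printed for KEAP1 and for TXNRD1 lie wholly in annotated exons of those genes, those for GCLM overlap an exon by 12 bases, and those for OSGIN1 lie outside OSGIN1 exons. The KEAP1 and TXNRD1 matches belong to the downstream one of 2 listed starts. These are matches of letters, and no binding was measured. The 4 were picked for their likeness, and other matches in the windows are not printed. Among the others are the core matches TGACACGGC in KEAP1 and TGACTTCGC and TGACGGAGC at the upstream TXNRD1 start, and variants in NFE2L2 and NQO1.

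KEAP1 was lower in GLE, and NFE2L2 was slightly higher under the main scaling. NFE2L2, on chromosome 2 (177230303 to 177264727, GRCh38), had 1001 GLE and 1440 DMSO counts, or 283 CPM in GLE and 249 CPM in DMSO. Its GLE over DMSO ratio was 1.14 (95% counting interval 1.05 to 1.23), and 36.8% of measured genes had a higher one. Under total-count scaling the ratio of NFE2L2 was 1.07. That shift, -0.08 in log2, exceeds the distance of the lower bound from 1, so whether the interval excludes 1 depends on the scaling. KEAP1, the adaptor that hands NRF2 to the ubiquitin ligase, lies on chromosome 19 (10486125 to 10503356) and had 227 GLE and 535 DMSO counts. At 64.2 CPM in GLE and 92.6 CPM in DMSO it was 1.44-fold lower (1.23 to 1.69), a difference exceeded downward by 24.2% of measured genes. The count of NFE2L2 relative to KEAP1 within a library needs no scaling between libraries. That count ratio was 4.41 in GLE and 2.69 in DMSO, and was 1.64-fold higher (1.37 to 1.96) in GLE.

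The small MAF partners of NRF2 had higher ratios than NFE2L2 itself. MAFG, a small MAF protein that pairs with NRF2 on DNA, had 867 GLE and 337 DMSO counts and was 4.2-fold higher (3.70 to 4.78). MAFF and MAFK, the other small MAF genes, had ratios of 1.998 (1.62 to 2.47) and 1.66 (1.46 to 1.88). Relative to NFE2L2, the count of MAFG was 3.70-fold higher (3.18 to 4.31) in GLE. BACH1, a repressor that competes with NRF2 for small MAF partners, was named after its value was seen, with a ratio of 1.80 (1.41 to 2.31). By the interval bound nearest to 1, the lowest in this list were DPP3, a KEAP1-binding peptidase, RBX1, the RING subunit of the CUL3 ligase, and SQSTM1, the autophagy receptor that sequesters KEAP1. Their ratios were 0.771 (0.684 to 0.869), 0.803 (0.718 to 0.898) and 0.847 (0.807 to 0.887). Over 20 measured partners and regulators, MAFG alone reached a 2-fold higher value and 0 reached a 2-fold lower one. Over all measured genes the shares were 9.54% and 10.5%. MAFF joined MAFG under DESeq2 or median-centred scaling, and 2 genes also passed with a trend of the ratio on transcript GC content removed. The median log2 ratio of the 20 was 0.09. CUL3, named after its value was seen, had a ratio of 0.868 (0.705 to 1.06).

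Of the 3 glutathione supply genes, SLC7A11 and GCLM had the highest ratios of the 10 genes and GCLC the one nearest to 1. SLC7A11, the light chain of the cystine-glutamate exchanger xCT on chromosome 4 (138164097 to 138242349), had 673 GLE and 349 DMSO counts. It stood at 190 CPM in GLE and 60.4 CPM in DMSO, a ratio of 3.15 (2.76 to 3.60), and 359 of the measured genes (3.24%) had a higher ratio. GCLM, the regulatory subunit of glutamate-cysteine ligase, the rate-limiting enzyme of glutathione synthesis, lies on chromosome 1 (93885199 to 93909430). It had 441 GLE and 241 DMSO counts, or 125 CPM in GLE and 41.7 CPM in DMSO, a ratio of 2.99 (2.55 to 3.51). GCLC, the catalytic subunit of the same ligase on chromosome 6 (53497341 to 53545101), had 179 GLE and 282 DMSO counts. At 50.6 CPM in GLE and 48.8 CPM in DMSO its ratio was 1.04 (0.855 to 1.26), a difference not detectable at this depth. The count ratio of GCLM to GCLC was 2.46 in GLE and 0.855 in DMSO, so the 2 subunits of one enzyme differed by 2.88-fold (2.24 to 3.71) in how their counts compared between libraries. The corresponding value for SLC7A11 and GCLM was 1.05 (0.855 to 1.30), which includes 1.

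**Figure D2:**
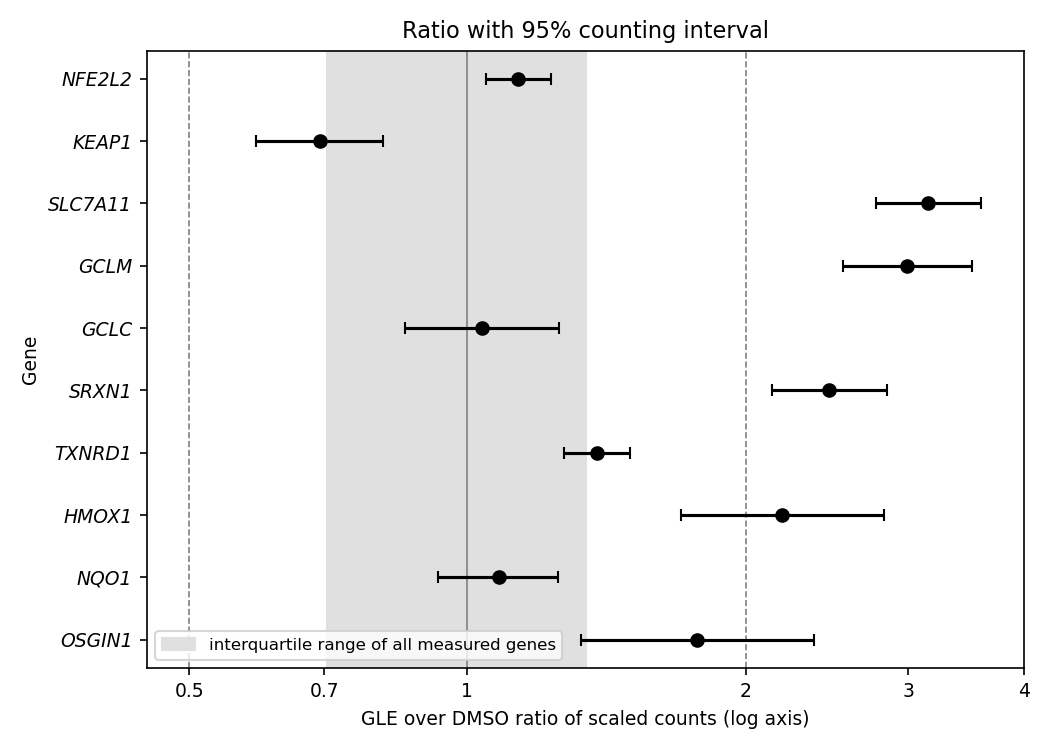
GLE over DMSO ratio of scaled counts for each of the 10 genes (log axis) with its 95% counting interval. Dashed lines mark 2-fold either way and the grey band the interquartile range of all measured genes. SLC7A11, GCLM and SRXN1 lie wholly past 2-fold, the intervals of GCLC and NQO1 span 1, and KEAP1 lies below 1.

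Around these, the other glutathione genes lay on both sides. CTH, which makes cysteine from cystathionine, had 133 GLE and 33 DMSO counts, a ratio of 6.59 (4.47 to 9.96). CHAC1, which degrades glutathione, had 1124 GLE and 321 DMSO counts, a ratio of 5.72 (5.05 to 6.50). SLC3A2, the heavy chain that carries the SLC7A11 light chain to the membrane, had a ratio of 1.61 (1.47 to 1.77). The count of SLC7A11 relative to SLC3A2 was 1.95-fold higher (1.66 to 2.29) in GLE. GSS, which completes glutathione from the product of the ligase, was 1.31-fold lower (1.06 to 1.62), and ANPEP and CNDP2, peptidases that split glutathione breakdown products, had ratios of 0.601 (0.501 to 0.718) and 0.685 (0.556 to 0.840). Of 13 measured genes of glutathione synthesis, recycling and breakdown, CTH and CHAC1 reached a 2-fold higher value and 0 a 2-fold lower one. Over all measured genes the shares were 9.54% and 10.5%. The median log2 ratio of the list was -0.16. CBS, the enzyme before CTH, was at 0 counts in both libraries and gave no ratio. Whether this reflects the cells or how reads were assigned to genes was not tested.

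SLC7A11, CTH and CHAC1 are also known targets of ATF4, the transcription factor of the integrated stress response. ATF4, named after its value was seen, had a ratio of 2.19 (2.08 to 2.30), and ATF3, DDIT3 and DDIT4, stress genes downstream of it, had ratios of 12.0 (10.4 to 13.8), 9.17 (7.42 to 11.4) and 2.79 (2.37 to 3.29). Of 11 measured genes in the list of ATF4 and its targets, 5 reached a 2-fold higher value and 0 a 2-fold lower one, against 9.54% and 10.5% of all measured genes, and the median log2 ratio was 0.61. The asparagine synthetase gene ASNS, named after its value was seen, had 1 GLE and 0 DMSO counts and was not measured. Whether the low count of ASNS reflects the cells or how reads were assigned to genes was not tested. SLC7A5, an amino acid transporter, NUPR1 and CEBPB, stress-responsive nuclear factors, lay lower, at ratios of 0.683 (0.508 to 0.910), 0.791 (0.722 to 0.866) and 0.799 (0.656 to 0.970). What part ATF4 had in the counts of SLC7A11 was not tested.

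In the thioredoxin branch SRXN1 stood above TXNRD1. SRXN1, sulfiredoxin, which rescues overoxidized peroxiredoxins, lies on chromosome 20 (646615 to 653200). It had 484 GLE and 321 DMSO counts, or 137 CPM in GLE and 55.6 CPM in DMSO, a ratio of 2.46 (2.14 to 2.85). TXNRD1, the cytosolic thioredoxin reductase on chromosome 12 (104215779 to 104350307), had 1074 GLE and 1270 DMSO counts. At 304 CPM in GLE and 220 CPM in DMSO its ratio was 1.38 (1.27 to 1.5). The count of SRXN1 relative to TXNRD1 was 1.78-fold higher (1.51 to 2.11) in GLE.

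The partners of these enzymes were divided as well. PRDX1, a peroxiredoxin that sulfiredoxin repairs, was 1.53-fold lower (1.46 to 1.61), with 2286 GLE and 5730 DMSO counts, so SRXN1 relative to PRDX1 was 3.78-fold higher (3.25 to 4.4) in GLE. TXN, the substrate of TXNRD1, was named after its value was seen, with a ratio of 1.57 (1.41 to 1.76). TXNRD1 relative to TXN gave 0.878 (0.764 to 1.01), an interval that includes 1. SESN2 and SESN3, stress-inducible sestrins, had ratios of 4.23 (3.83 to 4.68) and 2.32 (1.54 to 3.51), and the mitochondrial glutaredoxin GLRX2 of 2.01 (1.57 to 2.57). TXNIP, the thioredoxin inhibitor, was 2.98-fold lower (2.33 to 3.86) and the reductase TXNRD3 1.77-fold lower (1.16 to 2.78). Of 18 measured partners, 4 reached a 2-fold higher value and 1, TXNIP, a 2-fold lower one, against 9.54% and 10.5% of all measured genes. The first count was 2 when scaled by total counts, and 2 with the GC trend removed. Their median log2 ratio was 0.26.

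HMOX1 and NQO1, both textbook NRF2 targets, differed in size. HMOX1, which opens the heme ring on chromosome 22 (35381096 to 35394207), had 150 GLE and 112 DMSO counts, or 42.4 CPM in GLE and 19.4 CPM in DMSO. Its ratio was 2.19 (1.70 to 2.82), so at this depth a difference under 2-fold lies within the counting interval. NQO1, a quinone reductase on chromosome 16 (69709401 to 69726560), had 295 GLE and 446 DMSO counts. At 83.4 CPM in GLE and 77.2 CPM in DMSO its ratio was 1.08 (0.930 to 1.25), an interval that includes 1. The count of HMOX1 relative to NQO1 was 2.02-fold higher (1.51 to 2.72) in GLE.

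Other genes of heme breakdown and iron had counting intervals above 1 for 2 and below 1 for 5 of 10 measured genes, against 27.7% and 30.1% of all measured genes. BLVRA and BLVRB, the biliverdin reductases, were named after their values were seen, with ratios of 0.636 (0.423 to 0.940) and 1.05 (0.910 to 1.22). FTH1, the ferritin heavy chain, had 6493 GLE and 10172 DMSO counts, a ratio of 1.04 (1.01 to 1.08) whose size is within the shift that other scalings gave. SLC48A1, a heme transporter, had a ratio of 1.51 (1.06 to 2.16). Whether the intervals of FTH1 and SLC48A1 exclude 1 depends on the scaling. The iron exporter SLC40A1, the porphyrin transporter ABCB6 and the transferrin receptor TFRC had ratios of 0.589 (0.433 to 0.792), 0.630 (0.509 to 0.776) and 0.703 (0.657 to 0.752). None of the 10 measured genes of heme breakdown and iron was 2-fold higher or lower, against 9.54% and 10.5% of all measured genes. The median log2 ratio of the 10 was -0.30.

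OSGIN1, an oxidative stress-induced growth inhibitor on chromosome 16 (83953240 to 83966332), had the fewest counts of the 10 genes, 102 in GLE and 94 in DMSO. It stood at 28.8 CPM in GLE and 16.3 CPM in DMSO, a ratio of 1.77 (1.33 to 2.37). With the GC trend removed it passed 2-fold, at 2.09. That GC content was of the whole transcript and not of the parts that reads covered.

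Ratios between 2 genes of one library do not depend on how the libraries were scaled, so all 45 pairs of the 10 genes were set side by side. The exact 95% interval of the ratio of ratios excluded 1 for 37 pairs and included it for 8. Among all measured genes, single intervals lay above 1 for 27.7% and below 1 for 30.1%. The share for pairs of other genes was not counted, so 37 of 45 cannot be read as particular to these genes. The 8 were SLC7A11 with GCLM, GCLM with SRXN1, SRXN1 with HMOX1, HMOX1 with OSGIN1, OSGIN1 with TXNRD1, NFE2L2 with NQO1, NFE2L2 with GCLC, and NQO1 with GCLC. All 8 joined genes next to each other in the order of ratios or, for NFE2L2 and GCLC, with NQO1 between them. KEAP1 differed from each of the other 9, from 1.5-fold (1.16 to 1.92) against GCLC to 4.54-fold (3.69 to 5.59) against SLC7A11. NFE2L2, NQO1 and GCLC were the sole group of 3 in which no pair differed beyond counting error.

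**Figure D3:**
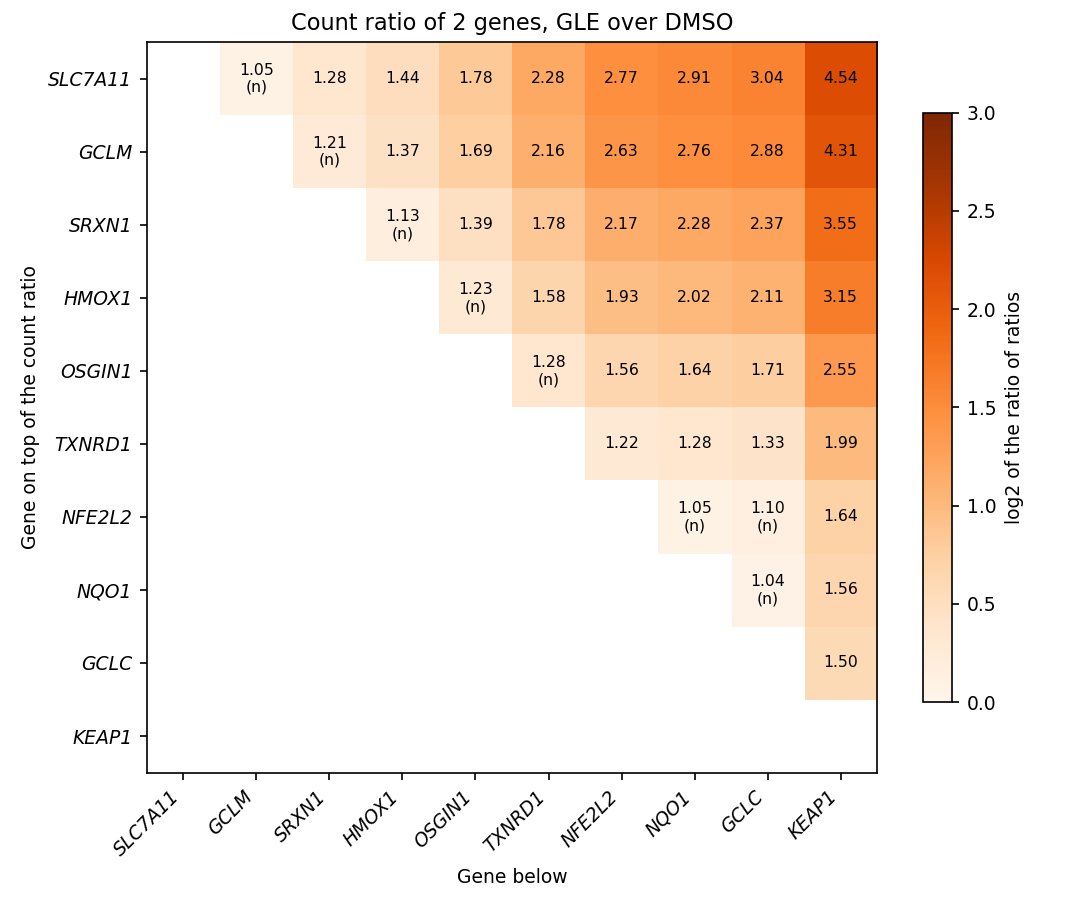
For each pair, the count of the row gene over that of the column gene in GLE, divided by the same in DMSO, as the exact conditional estimate. Colour gives its log2 and (n) marks the 8 pairs whose 95% interval includes 1. Genes run from the highest ratio, SLC7A11, to the lowest, KEAP1, whose column holds values from 1.5 to 4.54.

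A further list of NRF2 target genes was counted in the same way. It holds no gene of the other lists, and NRF2 targets placed there, such as genes of NADPH supply and of thioredoxin, were not counted here. The list therefore does not stand for all NRF2 targets outside the 10. Of 21 measured genes in that list, 0 reached a 2-fold higher value and ABCC2 alone a 2-fold lower one, against 9.54% and 10.5% of all measured genes. The first count was 1 with a minimum of 10 counts or with the GC trend removed, and 4 with no minimum. Counting intervals were above 1 for 2 of them and below 1 for 9, against 27.7% and 30.1% of all measured genes. Among the 8 genes under the minimum, named after their values were seen, AKR1B1 had 8 GLE and 0 DMSO counts and AKR1C3 had 9 GLE and 6 DMSO counts. ABCC2 and ABCC3, efflux pumps for conjugates, had ratios of 0.344 (0.305 to 0.388) and 0.517 (0.419 to 0.634). GPX2, a glutathione peroxidase, was 1.63-fold lower (1.44 to 1.84). MGST1, a microsomal glutathione transferase, had a ratio of 1.11 (1.00 to 1.22), and the glycine transporter SLC6A9, with 26 GLE and 22 DMSO counts, of 1.93 (1.05 to 3.57). Whether the intervals of MGST1 and SLC6A9 exclude 1 depends on the scaling, since total-count scaling shifts all log2 ratios by -0.08. The median log2 ratio of the list was -0.33, against -0.04 for all measured genes. Counts of the hepatoma markers were lower too, at a median log2 ratio of -0.52, and their part in this list was not tested.

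Genes that supply NADPH, the electron source of both glutathione and thioredoxin reductases, lay on both sides of 1. Counting intervals were above 1 for 5 of the 10 measured genes and below 1 for 2, against 27.7% and 30.1% of all measured genes. For RPE and ME1, named after their values were seen, whether the interval excludes 1 depends on the scaling. TKT, RPIA and PGD of the pentose phosphate pathway had ratios of 1.70 (1.43 to 2.03), 1.41 (1.13 to 1.76) and 1.36 (1.20 to 1.54). NNT, the mitochondrial transhydrogenase, was 2.48-fold lower (1.71 to 3.68), and the isocitrate dehydrogenase IDH1 1.63-fold lower (1.49 to 1.79). NNT alone of the 10 was at least 2-fold lower and none was 2-fold higher, against 10.5% and 9.54% of all measured genes. The median log2 ratio of the 10 was 0.17.

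**Figure D4:**
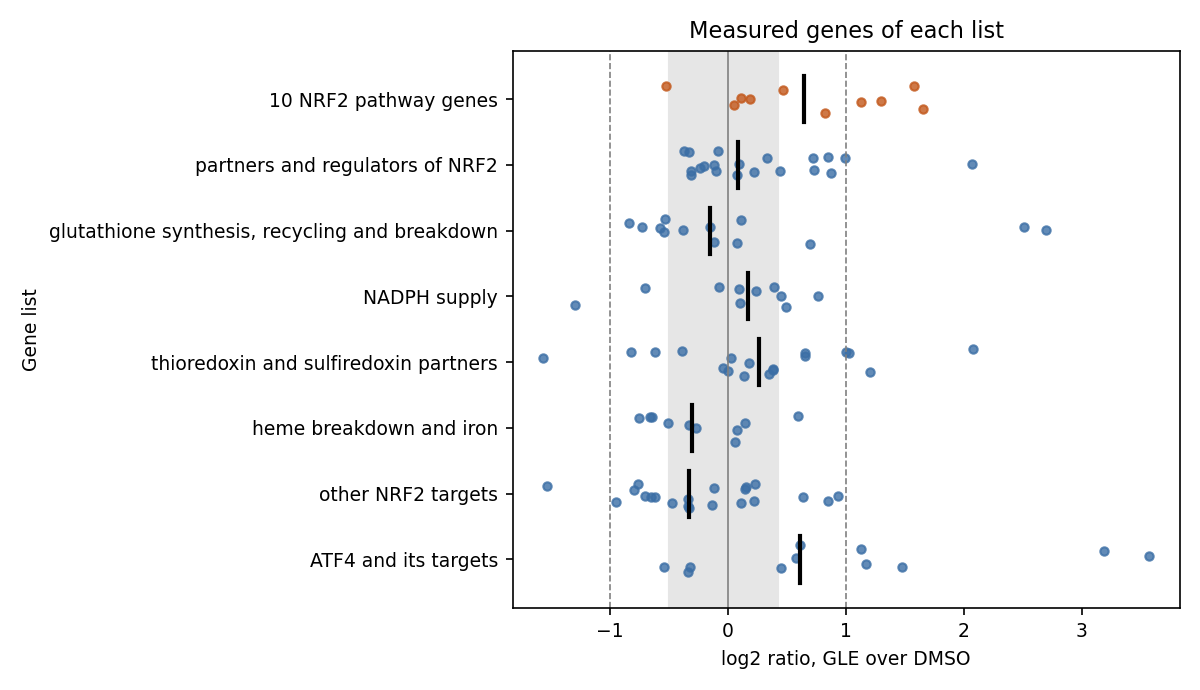
log2 ratio, GLE over DMSO, of each measured gene (points) in the 10 NRF2 pathway genes and the 7 other lists, with the median as a black bar. Dashed lines mark 2-fold and the grey band the interquartile range of all measured genes. The medians run from -0.33 for other NRF2 targets to 0.64 for the 10 genes.

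Overlapping genes limit how far single counts can be read, and the strand setting of the counting is not given. In GENCODE 29, exons of SLC7A11 overlap the antisense gene SLC7A11-AS1, which had 0 counts in both libraries. Exons of NFE2L2 overlap AGPS on the other strand, which had 105 GLE and 287 DMSO counts. NFE2L2, GCLC, TXNRD1 and NQO1 exons overlap antisense genes known by clone names. Exons of NFE2L2, GCLC, SRXN1 and OSGIN1 overlap genes of the same strand with clone names, annotated as protein-coding for SRXN1 and OSGIN1. Overlaps on the same strand limit the counts whatever the strand setting. GCLM and HMOX1 overlap no other gene there, and KEAP1 exons none. Overlaps were taken anywhere in an exon. Which parts of the exons the reads covered was not examined, so whether an overlap touches counted sequence is not known.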

How the data were processed

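Hep3B messenger RNA was measured in 1 GLE and 1 DMSO library made from total RNA with a Lexogen QuantSeq kit, per the labels' protocols. The deposited values are raw read counts per gene symbol, without normalization by the authors. The submitters' processing notes name fastp, STAR, HTSeq and GRCh38. The sources used here give no tool version, annotation or strand setting. Of 43424 symbols, 42739 matched RefSeq.

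Counts were scaled to CPM by TMM effective library sizes (edgeR 4.0.16, R 4.3.3). TMM factors were 0.972 for GLE and 1.03 for DMSO. Genes needed 30 counts over both libraries. Each ratio came from scaled counts, and its 95% interval from the exact Clopper-Pearson bounds on the fraction of a gene's reads found in GLE. Log2 ratios had 0.5 added to each count in proportion to library size. Ratios between genes used conditional odds ratios (SciPy 1.17.1, Python 3.11.15). Single-gene ratios and their intervals were tested on simulated Poisson counts, which hold no variation between cultures. Without replicates, no p-value was computed.

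Other settings were total-count, DESeq2 1.42.0 and upper-quartile scaling, median centring, other library sizes, other minimums and added counts, thinning, and a lowess GC trend of span 0.3 (statsmodels 0.14.6), the last chosen after seeing the data. GC content was taken over the longest protein-coding transcript of each gene, whichever part of it the reads covered. Figures used matplotlib 3.10.9.

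The 10 genes and the lists were chosen with earlier results of these data known. All 10 genes are named, with up to 3 highest and 3 lowest of each list by the interval bound nearest to 1, where the interval excludes 1. Other genes are said to be named after their values were seen.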

Additional observations from a re-analysis of the deposited data

How the results depend on the processing

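The count of at least 2-fold higher genes among the 10 was 4 under every scaling, minimum and thinning tried, 3 when the whole interval had to pass 2-fold and 5 with the GC trend removed. None was at least 2-fold lower in any of these. The 37 pairs with unequal change became 35 in the thinned library. Over 80 values of single genes under other settings, 79 stayed within the main counting interval and none changed sign beyond it. The exception was SLC7A11 with the GC trend removed, at a log2 ratio of 1.46. GCLC crossed 1 when scaled by total counts, at a log2 ratio of -0.03. KEAP1 lay between -0.61 and -0.35. Total-count scaling gave the largest shift of all log2 ratios, -0.08. MAFF passed 2-fold with DESeq2 or median-centred scaling. Over 70 list medians under other settings, 6 moved by over 0.1. They were the thioredoxin partners with a minimum of 100 counts, at 0.15, ATF4 and its targets with that minimum, at 0.85, or with none, at 0.87, and 3 with the GC trend removed, at 0.20 for the partners and regulators of NRF2, 0.36 for the thioredoxin partners and -0.17 for heme and iron. All 7 list medians kept their sign. Of 93 counts, 9 moved by over 1.5 times, all counts of 2-fold higher genes in lists. With no minimum, glutathione genes went to 4 against 2 in the main setting and other NRF2 targets to 4 against 0, or 1 with a minimum of 10 counts or the GC trend removed. Thioredoxin partners gave 2 against 4 with total-count scaling or the GC trend removed, and partners and regulators of NRF2 gave 2 against 1 with DESeq2 or median-centred scaling or the GC trend removed. No paired analysis was possible because each group had 1 library. Depth limits HMOX1 and OSGIN1 most, and variation between cultures was not measured.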
